A study of Mus musculus with 4 samples.

Results

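The genes described here make cholesterol and unsaturated fatty acids, and RNA sequencing measured them in mouse mammary basal cells that carried either wild-type or floxed miR-205 alleles. They were listed by symbol: 30 genes were named for the sterol pathway and for fatty acid desaturation, elongation and activation, and 29 of them had a row among the 34615 gene rows of the count files. Hmgcs1 was not analysed here. All cells had first been treated with a Cre adenovirus (Ad-cre). The wild-type group (WT) is labelled WTfl/flmTmGfl/fl cre+ as its genotype and WT;RosamTmG/mTmG in the design, and the knockout group (KO) is labelled miR205fl/flmTmGfl/fl cre+. Both groups thus share the mTmG reporter, which Cre turns from red to green, and both grew as transplants in SCID-Beige mice aged 3 weeks at surgery, a host that lacks working lymphocytes. After 8 weeks, green CD24+CD49fhigh cells were sorted from a pool of 40 outgrowths, and 2 libraries were sequenced per genotype. Nothing states that the replicates came from separate pools, so the spread behind every p-value is that of these libraries and may be technical. Mir205, the row of the microRNA's hairpin, had 0 counts in each of the 4 libraries, so the counts give no check of the genotype labels.

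Cholesterol is built from acetyl-CoA through mevalonate, isoprenoid diphosphates, squalene and lanosterol, each step by its own enzyme in the cytosol or the endoplasmic reticulum. The transcription factor SREBP-2, encoded by Srebf2, switches these enzymes on when sterols run low: Scap escorts it to the Golgi for cleavage, and the Insig proteins hold Scap back when sterols are plentiful. Desaturases and elongases shape the acyl chains of membrane lipids and are partly driven by the related factor SREBP-1, and in the mammary gland both pathways are best known for their activity in lactating luminal cells.

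Sequences of 2 kinds are shown, letter matches to the study's microRNA and windows around gene starts. Whether either bears on the regulation of these genes was not tested. The mature miR-205-5p is given first, from RefSeq (GRCm38.p6, chr1:193507503-193507524, minus strand), with bases 2 to 8, the seed, in capitals. Below it are seed matches in the 3' untranslated regions of Sqle, Srebf2 and Sc5d, each with the match in capitals and read from the GENCODE M21 transcript with the longest such region.
miR-205-5p: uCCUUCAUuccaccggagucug
Sqle site: ttacagttgaaaATGAAGGtcagag
Srebf2 site: agagctgtgaggATGAAGGcaagac
Sc5d site: gacttttttttaATGAAGGgaataa
All 3 are 7mer-m8 matches, the complement of bases 2 to 8. A longer 8mer match was found in Stard4, whose sequence is not shown. A match to ATGAAGG occurred in 4 of 29 listed genes (13.8%), against 2035 of 18174 counted genes with an annotated 3' untranslated region (11.2%). A match is a description of letters and not evidence of binding.

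The windows printed next run from 250 bases before to 50 bases after a gene's start (RefSeq, GRCm38.p6), 5' to 3' on the gene's strand. They belong to 3 genes that stood higher and 2 that stood lower in the KO library that differed most from WT. Capitals mark CACCCCA, the core of the sterol response element, the NF-Y box CCAAT and the E-box CACGTG, each on either strand.
Srebf2 (chr15:82147019-82147318, plus strand): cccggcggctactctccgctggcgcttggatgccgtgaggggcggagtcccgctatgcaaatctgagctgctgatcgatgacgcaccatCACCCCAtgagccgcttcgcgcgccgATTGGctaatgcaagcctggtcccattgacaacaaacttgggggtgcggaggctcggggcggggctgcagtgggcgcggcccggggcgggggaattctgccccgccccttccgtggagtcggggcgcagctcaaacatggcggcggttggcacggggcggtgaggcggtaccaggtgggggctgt
Lss (chr10:76531355-76531654, plus strand): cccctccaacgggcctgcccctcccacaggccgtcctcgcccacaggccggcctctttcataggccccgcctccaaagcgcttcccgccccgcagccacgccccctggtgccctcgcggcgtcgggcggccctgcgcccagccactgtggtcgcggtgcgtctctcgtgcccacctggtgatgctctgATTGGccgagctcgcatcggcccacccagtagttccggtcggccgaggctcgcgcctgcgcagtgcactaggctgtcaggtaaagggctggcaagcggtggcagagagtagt
Msmo1 (chr8:64733529-64733828, minus strand): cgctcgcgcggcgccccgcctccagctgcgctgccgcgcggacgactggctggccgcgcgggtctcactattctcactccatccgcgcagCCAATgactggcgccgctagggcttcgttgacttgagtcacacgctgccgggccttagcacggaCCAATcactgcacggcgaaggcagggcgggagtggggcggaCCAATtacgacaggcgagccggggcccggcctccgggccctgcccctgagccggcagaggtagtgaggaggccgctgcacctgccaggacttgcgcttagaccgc
Elovl5 (chr9:77917115-77917414, plus strand): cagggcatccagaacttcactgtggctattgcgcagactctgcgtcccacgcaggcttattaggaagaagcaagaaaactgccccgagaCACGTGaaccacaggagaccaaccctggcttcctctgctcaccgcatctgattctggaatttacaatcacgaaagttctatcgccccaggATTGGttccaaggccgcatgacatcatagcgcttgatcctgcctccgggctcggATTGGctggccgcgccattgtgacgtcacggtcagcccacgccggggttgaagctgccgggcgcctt
Fads2 (chr19:10101454-10101753, minus strand): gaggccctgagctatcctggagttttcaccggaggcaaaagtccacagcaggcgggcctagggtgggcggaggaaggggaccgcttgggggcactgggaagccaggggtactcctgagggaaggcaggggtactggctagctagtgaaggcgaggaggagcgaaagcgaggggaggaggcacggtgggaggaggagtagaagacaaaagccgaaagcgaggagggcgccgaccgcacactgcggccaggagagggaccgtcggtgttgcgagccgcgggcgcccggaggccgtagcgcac
Such windows were used for 23 of the 30 listed genes, Hmgcs1 among them. A chromosome that was left out for the listed genes was kept in the shares over all genes. CCAAT, the site of a factor that works beside SREBP, was present in 19 of them (82.6%), against 41.1% of all 27025 genes with a window and 42.3% of the 10321 tested genes with one. CACCCCA was present in 3 (Acat2, Hmgcs1 and Srebf2, 13.0% against 8.66% of all genes), and CACGTG in 6 (26.1% against 8.09%). The full element, with AT before and C after that core, was in none of the 23 windows and in 0.0999% of all genes. CCAAT was present in the windows of Srebf2, Lss and Msmo1, which stood higher in that library. It was also present in that of Elovl5, which stood lower, while the Fads2 window held none of these motifs. Among genes whose windows are not printed, Scap stood higher and had no CCAAT. Dhcr7, Sc5d, Tm7sf2 and Pmvk stood lower and had it.

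Values are gene counts as CPM, relative to the library's total gene count, scaled by TMM, a factor that aligns the bulk of genes between libraries. Depth ran from 47953972 to 60030932 gene counts per library, so that a count of 0 allows up to 0.04773 to 0.07191 CPM, for counting error only. KO replicate 2 stood apart: 12679 genes had a count there, against 18027 to 18897 in the other 3 libraries, and its correlation with them across tested genes was 0.826 to 0.842, against 0.926 to 0.949 among the others. Genes are not independent replicates. Basal markers were abundant in every library, Krt5 at 1219 CPM or more and Trp63 at 900.6 CPM or more, and Krt14 was not analysed here. Log2 fold changes in KO replicate 2 alone were positive for 4 of the 7 basal markers with a row and negative for 3. Of those positive, Oxtr had 165.2 and 104.1 CPM in the WT libraries, against 165.4 and 332.7 CPM in the KO libraries. Trp63 had 1049 and 903.5 CPM in the WT libraries, against 900.6 and 1309 CPM in the KO libraries. Of those negative, Myh11 had 1644 and 1813 CPM in the WT libraries, against 1854 and 1228 CPM in the KO libraries. Cnn1 had 224.4 and 213.5 CPM in the WT libraries, against 272.6 and 121.9 CPM in the KO libraries. Summed milk protein markers stood at 52.4 and 122 CPM in the WT libraries, against 42.9 and 169.4 CPM in the KO libraries, and summed fibroblast markers at 562 and 599.5 CPM in the WT libraries, against 660.4 and 896.6 CPM in the KO libraries. Summed luminal markers stood at 971.5 and 1464 CPM in the WT libraries, against 1074 and 1579 CPM in the KO libraries. In KO replicate 2 alone, log2 fold changes were positive for 6 of 10 luminal markers and negative for 4. Summed immune markers stood at 63.0 and 144.2 CPM in the WT libraries, against 94.8 and 315.6 CPM in the KO libraries. Cd74 made up 289.2 CPM of that last sum, and Ptprc was also highest in KO replicate 2, at 25.0 CPM. Lyz2 went the other way, with 3.50 and 4.44 CPM in the WT libraries, against 20.05 and 1.37 CPM in the KO libraries. Summed endothelial markers stood at 63.8 and 118.8 CPM in the WT libraries, against 107.7 and 48.3 CPM in the KO libraries. KO replicate 2 thus had the highest milk, fibroblast, luminal and immune sums and the lowest endothelial sum of the 4 libraries. Single markers did not all follow these sums. Csn3 made up 148.8 CPM of the milk sum in KO replicate 2. Csn2 had 18.1 and 13.7 CPM in the WT libraries, against 9.23 and 11.2 CPM in the KO libraries. Kit, a luminal marker, had 15.6 and 27.6 CPM in the WT libraries, against 6.9 and 1.44 CPM in the KO libraries. Cdh5, an endothelial marker, had 41.99 and 89.96 CPM in the WT libraries, against 83.13 and 42.11 CPM in the KO libraries. The part of these markers in the values below was not tested. Each KO library is therefore set against the WT pair separately as well as together.

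Over both KO libraries, none of the 29 genes was called different between the genotypes. The edgeR quasi-likelihood test called 0 of 29 at a Benjamini-Hochberg adjusted p under 0.05 over all genes, beside a background of 0% of 15364 tested genes, and at an unadjusted p under 0.05 the count was also 0 of 29. DESeq2 also called 0 of 29. Fitted log2 fold changes of KO over WT were positive for 14 genes and negative for 15, with a median of -0.07, against a median of -0.14 over all tested genes. With total count scaling in place of TMM the fold changes of all genes shifted by -0.10 in the median, and no listed gene turned direction. Both KO libraries lay above both WT libraries in 6 genes (Sqle, Fdft1, Insig1, Scap, Scd2 and Acsl3), or 6 of 29 beside a background of 13.2%. Both lay below in 2 genes (Hsd17b7 and Stard4), beside a background of 19.2%, so that 8 of 29 did not overlap in either direction, against 32.4%.

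The KO libraries differed in how many listed genes were called. Set alone against the WT pair, KO replicate 1 gave 0 called genes among the 29 and 0% of 16904 tested genes, with 16 positive and 13 negative fold changes and a median of 0.13. KO replicate 2, set alone against the same WT pair, gave 7 genes higher and 8 lower, or 15 of 29, where 12.4% and 22.5% of 16392 tested genes were called higher and lower and 34.9% in either direction. The median there was -0.78, against -0.71 over all tested genes. With total count scaling, an alternative added after seeing the data, KO replicate 2 gave 4 higher and 9 lower, or 13 of 29, beside 8.39% and 25.6% of all tested genes and 33.9% in either direction. A single KO library cannot tell the genotype apart from what is particular to that library, its spread is assumed to be that of the WT pair, and both comparisons use the same WT libraries.

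**Figure D1:**
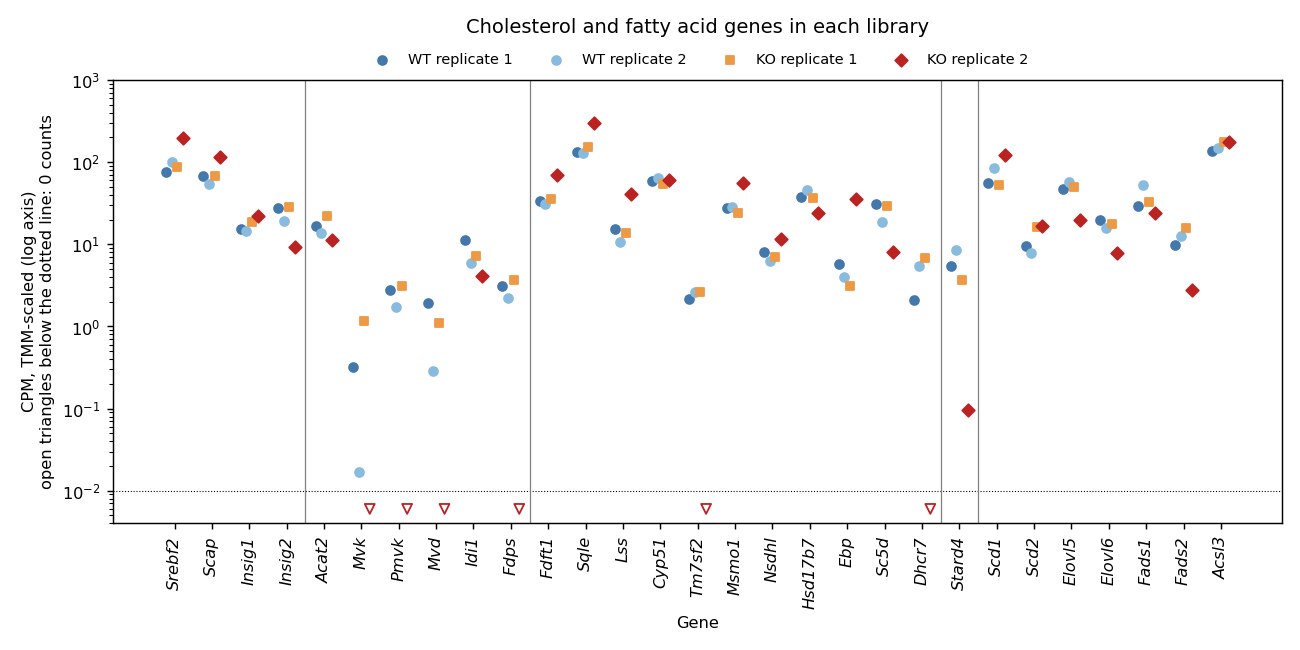
TMM-scaled CPM (log axis) of the 29 genes in each of the 4 libraries, ordered by role and divided by grey lines into regulators, mevalonate and isoprenoid steps, squalene and sterol steps, sterol transfer, and fatty acid genes. The WT libraries and KO replicate 1 lie close together for most genes, whereas KO replicate 2 lies above them for Sqle at 296.6 CPM and Srebf2 at 194.7 CPM and has 0 counts for Mvk, Pmvk, Mvd, Fdps, Tm7sf2 and Dhcr7.

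Among the regulators, the activating pair stood higher in KO replicate 2 and the 2 Insig genes went different ways. Srebf2, which encodes SREBP-2, had 76.9 and 100.6 CPM in the WT libraries, and 88.2 CPM in KO replicate 1 against 194.7 CPM in KO replicate 2. KO replicate 1 lay between the WT libraries and KO replicate 2 stood 2.19-fold above their mean. The fitted log2 fold change was 0.67 ± 0.44 (SE) over all 4 libraries and 1.13 ± 0.23 in KO replicate 2 alone (edgeR adjusted p = 0.01058). Scap, the escort protein, had 67.5 and 54.6 CPM in the WT libraries, and 68.3 CPM in KO replicate 1 against 116.4 CPM in KO replicate 2. It was called higher in KO replicate 2 with TMM (edgeR adjusted p = 0.02509) but not with total count scaling (edgeR adjusted p = 0.08568).

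Insig1, a retention protein whose own gene is a SREBP target, had 15.5 and 14.6 CPM in the WT libraries, against 18.5 and 21.9 CPM in the KO libraries. The groups did not overlap, but the log2 fold change of 0.42 ± 0.54 (SE) was smaller than its error. Insig2, the second retention protein, had 27.7 and 19.1 CPM in the WT libraries, and 28.5 CPM in KO replicate 1 against 9.30 CPM in KO replicate 2. Its lower value in KO replicate 2 missed the threshold with TMM (edgeR adjusted p = 0.06089) and passed it with total count scaling (edgeR adjusted p = 0.0407).

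Of the 6 mevalonate and isoprenoid genes with a row, 4 were under 5 CPM in every library and had 0 counts in KO replicate 2, and 2 of these were called lower there, beside 22.5% of all tested genes. Folds given below for genes with 0 counts cover counting error only. At 1 to 5 CPM in the WT mean, 40.6% of all genes had 0 counts in KO replicate 2. Pmvk, phosphomevalonate kinase, had 2.75 and 1.73 CPM in the WT libraries and 3.09 CPM in KO replicate 1. In KO replicate 2 it had 0 counts, at least 31.2-fold lower than the WT mean. Fdps, which makes farnesyl diphosphate, had 3.07 and 2.24 CPM in the WT libraries, and 3.69 CPM in KO replicate 1 against 0 counts in KO replicate 2, at least 36.9-fold lower. Both were called lower in that library alone, with edgeR adjusted p-values of 0.01146 and 0.008484, while KO replicate 1 lay above both WT libraries for each.

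Mvd, the mevalonate diphosphate decarboxylase, had 1.95 and 0.286 CPM in the WT libraries, and 1.10 CPM in KO replicate 1 against 0 counts in KO replicate 2. Mvk, mevalonate kinase, was barely detected, at 18 and 1 counts in the WT libraries, 73 counts in KO replicate 1 and 0 counts in KO replicate 2. For both genes the WT libraries themselves differed several-fold. Idi1, the isopentenyl diphosphate isomerase, had 11.4 and 5.93 CPM in the WT libraries, against 7.14 and 4.10 CPM in the KO libraries, and Idi2, its neighbour and paralog, may share reads with it. Acat2, the cytosolic thiolase that starts the pathway, had 16.7 and 13.8 CPM in the WT libraries, and 21.9 CPM in KO replicate 1 against 11.2 CPM in KO replicate 2, so the 2 KO libraries lay on opposite sides of WT.

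Among the squalene and sterol steps, fold changes in KO replicate 2 alone were positive for 6 of 11 genes and negative for 5, and 5 were called higher and 3 lower, beside 12.4% and 22.5% of all tested genes. Sqle, squalene epoxidase and a rate-limiting step, had 132.3 and 128.1 CPM in the WT libraries, and 151.1 CPM in KO replicate 1 against 296.6 CPM in KO replicate 2. The WT libraries differed by 1.03-fold, and both KO libraries lay above them, by 1.16-fold and 2.28-fold of the WT mean. The log2 fold change was 0.78 ± 0.37 (SE) over all 4 libraries (edgeR adjusted p = 0.9989), 0.22 in KO replicate 1 alone and 1.18 ± 0.17 in KO replicate 2 alone (edgeR adjusted p = 0.004061). Fdft1, squalene synthase, followed the same order with 33.6 and 31.4 CPM in the WT libraries, and 35.4 CPM in KO replicate 1 against 69.5 CPM in KO replicate 2 (edgeR adjusted p = 0.02117 in that library alone). Its 774 bases of exon shared with Ctsb on the opposite strand leave its counts uncertain, since the strand setting is not given, and Scap (985 bases), Lss (381), Acsl3 (244) and Cyp51 (166) also share exon bases with another gene.

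Lss, lanosterol synthase, had 15.3 and 10.8 CPM in the WT libraries, and 13.8 CPM in KO replicate 1 against 40.5 CPM in KO replicate 2. Msmo1, a sterol methyl oxidase, had 27.9 and 28.7 CPM in the WT libraries, and 24.1 CPM in KO replicate 1 against 56.0 CPM in KO replicate 2. Ebp, a sterol isomerase, had 5.71 and 4.05 CPM in the WT libraries, and 3.09 CPM in KO replicate 1 against 35.4 CPM in KO replicate 2. In these 3 genes KO replicate 2 stood alone: it was 3.10-fold, 1.98-fold and 7.25-fold above the WT mean, while KO replicate 1 was 1.06-fold, 0.849-fold and 0.632-fold of it. The edgeR adjusted p-values in KO replicate 2 alone were 0.01825 for Lss, 0.04027 for Msmo1 and 0.004642 for Ebp. With total count scaling those of Fdft1 and Msmo1 were 0.06107 and 0.1099 and no longer called.

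Another 3 enzymes of the sterol steps went the other way. Sc5d, a sterol desaturase, had 31.1 and 18.8 CPM in the WT libraries, and 29.2 CPM in KO replicate 1 against 8.17 CPM in KO replicate 2, 0.327-fold of the WT mean. Dhcr7, which makes cholesterol in the last step of one branch, had 2.09 and 5.50 CPM in the WT libraries, and 6.79 CPM in KO replicate 1 against 0 counts in KO replicate 2. Tm7sf2, a sterol reductase whose exons share 532 bases with Vps51, had 2.18 and 2.60 CPM in the WT libraries, and 2.66 CPM in KO replicate 1 against 0 counts in KO replicate 2. All 3 were called lower in KO replicate 2 alone, with edgeR adjusted p-values of 0.04154, 0.007454 and 0.009626, and none was lower in KO replicate 1 than in both WT libraries.

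The remaining 3 sterol genes were not called in any comparison. Hsd17b7, a ketosteroid reductase, had 37.9 and 45.8 CPM in the WT libraries, against 36.2 and 24.2 CPM in the KO libraries, below WT in both libraries with a log2 fold change of -0.47 ± 0.43 (SE). Nsdhl, a sterol dehydrogenase, had 8.11 and 6.34 CPM in the WT libraries, against 7.03 and 11.7 CPM in the KO libraries. Cyp51, the lanosterol demethylase, was the steadiest, with 58.6 and 63.6 CPM in the WT libraries, against 55.0 and 61.0 CPM in the KO libraries (log2 fold change -0.07 ± 0.30).

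Stard4, a carrier that moves cholesterol between membranes, had 5.40 and 8.42 CPM in the WT libraries, 3.66 CPM in KO replicate 1 and 4 counts, or 0.0959 CPM, in KO replicate 2. Both KO libraries lay below both WT libraries, at 0.530-fold and 0.0139-fold of the WT mean. The difference was not called over all 4 libraries (log2 fold change -1.88 ± 1.77, edgeR adjusted p = 0.9989) and was called in KO replicate 2 alone (edgeR adjusted p = 0.005049).

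**Figure D2:**
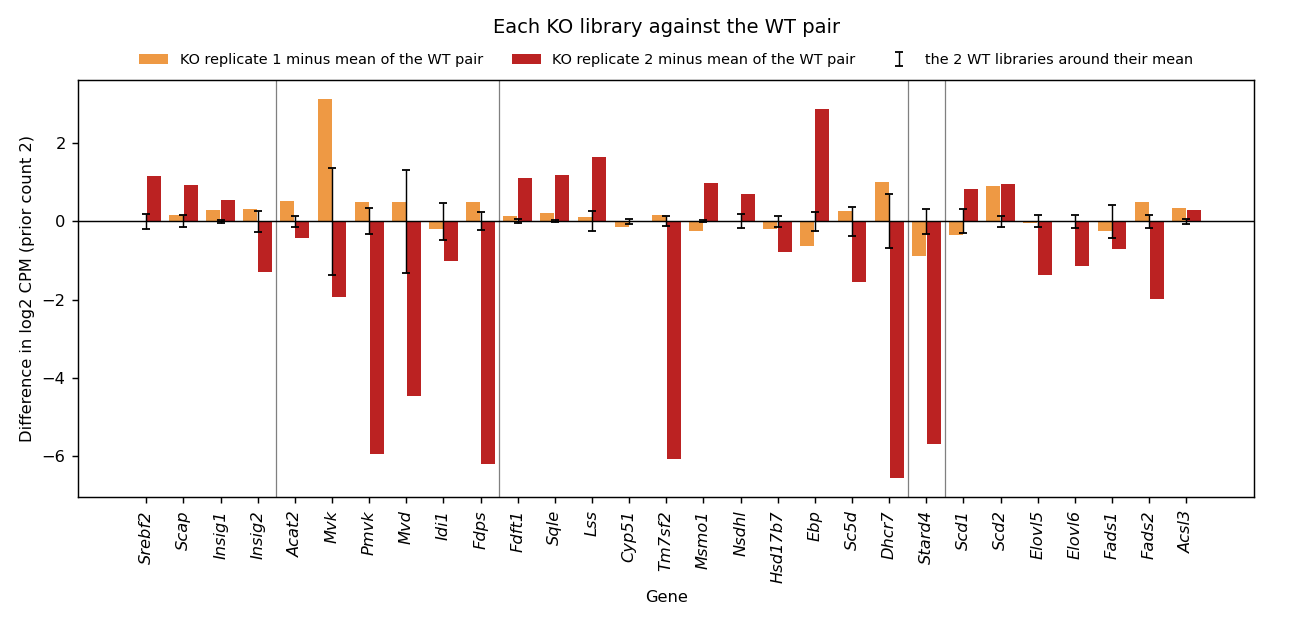
Difference in log2 CPM between each KO library and the mean of the WT pair for the 29 genes, as bars, with a black bracket for the spread of the 2 WT libraries around their mean. KO replicate 1 lies within the WT spread for some genes, such as Srebf2, and outside it for others, such as Sqle, Scd2 (0.897) and Stard4 (-0.875). The differences of KO replicate 2 run from -6.56 for Dhcr7 to 2.87 for Ebp.

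The 7 fatty acid genes included 2 that were called lower in KO replicate 2 alone and none called higher, beside 22.5% and 12.4% of all tested genes. Acsl3, an acyl-CoA synthetase of the endoplasmic reticulum and lipid droplets, had 136 and 147.1 CPM in the WT libraries, against 178.7 and 173.9 CPM in the KO libraries. The KO libraries differed little from each other and lay above WT by 1.26-fold and 1.23-fold, with a log2 fold change of 0.32 ± 0.21 (SE) that was not called (edgeR adjusted p = 0.9989). Scd2, a stearoyl-CoA desaturase, had 9.55 and 7.82 CPM in the WT libraries, against 16.1 and 16.8 CPM in the KO libraries, 1.86-fold and 1.93-fold of the WT mean. Its log2 fold change of 0.92 ± 0.65 was not called either, in all 4 libraries or in each KO library alone.

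Scd1, the main stearoyl-CoA desaturase of fat and skin glands, had 55.2 and 84.2 CPM in the WT libraries, and 53.2 CPM in KO replicate 1 against 121 CPM in KO replicate 2. The KO libraries lay on either side of the WT pair, and the gene was not called in KO replicate 2 alone (edgeR adjusted p = 0.0738). Scd1 and Scd2 are close paralogs in one cluster with Scd3 and Scd4, so reads may be split between them. Among adipocyte markers, 9 of 12 were under 1 CPM in every library, Adipoq, Plin1 and Cfd among them, and the list's summed level was 35.8 and 45.1 CPM in the WT libraries, and 56.3 CPM in KO replicate 1 against 167.7 CPM in KO replicate 2. Fabp4 made up 138.8 CPM of that last sum. Pparg went the other way, from 1.51 and 1.58 CPM in the WT libraries to 0 counts in KO replicate 2. It had 2.29 CPM in KO replicate 1. Of the 6 adipocyte markers tested in KO replicate 2 alone, log2 fold changes were positive for 2 and negative for 4. The part of these markers in the Scd1 value was not tested. In bulk samples a change in cell numbers and a change in RNA per cell cannot be told apart.

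All 4 genes for chain lengthening and polyunsaturated fatty acids had their lowest value in KO replicate 2, and 2 of them were called lower there, where 22.5% of all tested genes were. Elovl5, an elongase of polyunsaturated chains, had 46.7 and 57.4 CPM in the WT libraries, and 50.5 CPM in KO replicate 1 against 20.01 CPM in KO replicate 2. Fads2, the first desaturase of the polyunsaturated pathway, had 9.94 and 12.6 CPM in the WT libraries, and 15.8 CPM in KO replicate 1 against 2.80 CPM in KO replicate 2. Both were called lower in KO replicate 2 alone (edgeR adjusted p-values of 0.01803 and 0.03517), at 0.384-fold and 0.249-fold of the WT mean. Elovl6, which lengthens palmitate, had 19.8 and 15.6 CPM in the WT libraries, against 17.7 and 7.89 CPM in the KO libraries. Fads1, the second desaturase, had 29.1 and 52.5 CPM in the WT libraries, against 32.7 and 23.9 CPM in the KO libraries. Neither was called, and the WT libraries differed by 1.81-fold for Fads1.

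Levels between genes were compared per length, as CPM per kilobase of annotated exon. In the WT mean the order ran from Acsl3 at 32.5 and Sqle at 23.5 through Elovl5 at 14.8, Scd1 at 14.2, Cyp51 at 13.8 and Srebf2 at 12.4, down to Fdps at 0.630, Mvd at 0.602, Tm7sf2 at 0.544 and Mvk at 0.0628. The 4 genes from Elovl5 to Srebf2 were not separated beyond the spread of the WT libraries for Scd1, which differed by 1.53-fold. In KO replicate 2 Sqle took first place at 53.5, ahead of Acsl3 at 39.9 and Srebf2 at 27.1. Squalene epoxidase was thus the most abundant of the listed sterol enzymes per length in the WT mean and in both KO libraries. Mevalonate kinase (Mvk) and the decarboxylase Mvd were among the least abundant. Pmvk, the other kinase, stood at 1.31 in the WT mean.

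The listed genes were also set beside all genes of the same WT level. Of the listed genes at 1 to 5 CPM in the WT mean, 5 of 6 had 0 counts in KO replicate 2, as did 40.6% of all genes at that level, and 0 of 6 in KO replicate 1, against 0.593% of all genes. Of the 6 listed genes above 60 CPM, 4 stood more than 1.5-fold above WT in KO replicate 2, against 23.7% of all 3083 genes at that level. Between 5 and 20 CPM, 3 of 9 stood more than 1.5-fold above WT in KO replicate 2 (26.2% of all genes) and 4 of 9 below 2/3 of it (51.6% of all genes). The median log2 difference of the listed genes there was -0.44, against -0.685 for all genes at that level. Between 20 and 60 CPM the median was -0.78, against -0.0264 for all genes at that level. There 2 of 7 stood more than 1.5-fold above WT (28.5% of all genes) and 5 of 7 below 2/3 of it (34.4% of all genes). KO replicate 2 was the highest of the 4 libraries in 11 of 29 genes and the lowest in 16, beside backgrounds of 32.0% and 52.7%. Whether the low detection in that library produced these values was not tested.

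**Figure D3:**
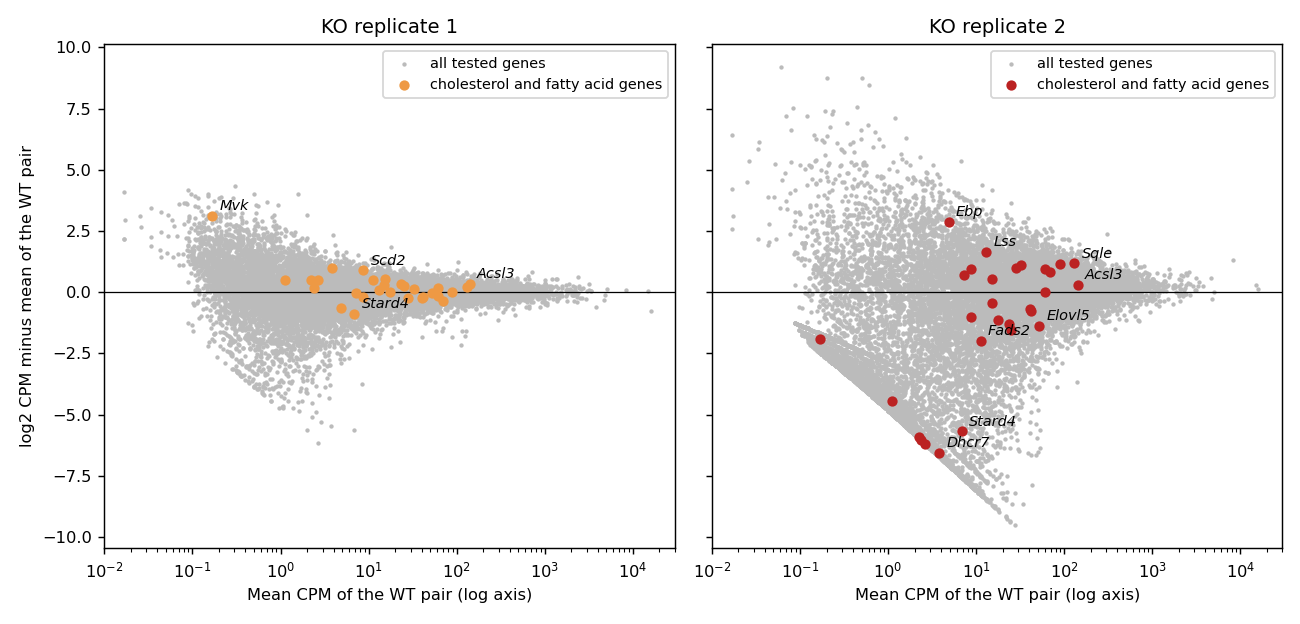
Difference in log2 CPM from the mean of the WT pair against the mean CPM of the WT pair (log axis) for all tested genes in grey and the 29 listed genes in colour, KO replicate 1 on the left and KO replicate 2 on the right. In KO replicate 1 Mvk lies farthest from 0, at 3.12, and Stard4 lies at -0.875, whereas in KO replicate 2 genes with low WT levels, such as Dhcr7, lie on the lower edge formed by genes with 0 counts and Ebp, Lss and Sqle lie above 0.

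Other genes of the pathway, taken from wider lists, were described the same way. None of 16 tested genes of sterol synthesis and uptake, 9 of SREBP processing, 24 of fatty acid synthesis and activation or 7 of the LXR and efflux list was called over all 4 libraries, and at an unadjusted edgeR p under 0.05 the count was 0 as well. Median log2 fold changes were -0.12, -0.11, 0.12 and 0.18, against -0.14 over all tested genes. Srebf1, Fasn, Acaca, Acly and Tmem97 were not analysed here.

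In KO replicate 2 alone, log2 fold changes of the 16 synthesis and uptake genes were positive for 8 and negative for 8. Their median was -0.298, against -0.709 over all tested genes. With total count scaling 7 were positive and 9 negative, with a median of -0.561 against -0.971. Soat1, which stores cholesterol as esters, was among those that stood higher, at 58.3 and 64.0 CPM in the WT libraries, against 72.0 and 126.3 CPM in the KO libraries. Aacs and Lpin1 were lower in KO replicate 2, Aacs at 9.51 and 9.75 CPM in the WT libraries, and 11.2 CPM in KO replicate 1 against 0.192 CPM in KO replicate 2. Aacs was named after its values were seen.

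Of the SREBP processing genes, 2 of 9, among them the ubiquitin ligase Rnf139, were called higher and 1, Faf2, lower in KO replicate 2 alone, beside 12.4% and 22.5% of all tested genes, and with total count scaling 2 and 2, beside 8.39% and 25.6%. Faf2 had 54.4 and 59.5 CPM in the WT libraries, against 54.0 and 18.4 CPM in the KO libraries. The site-1 protease gene Mbtps1, which cleaves SREBP, had 80.5 and 56.2 CPM in the WT libraries, against 64.7 and 43.3 CPM in the KO libraries, with overlapping groups. Mbtps2, the second protease, had 28.2 and 30.5 CPM in the WT libraries, against 33.4 and 49.9 CPM in the KO libraries, above WT in both libraries and not called. Mbtps1 was named after its values were seen.

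The 4 genes with a miR-205-5p seed match, whose sites are printed above for 3 of them, did not move together. Relative to the WT mean, KO replicate 1 had 1.16-fold for Sqle, 0.994-fold for Srebf2, 1.17-fold for Sc5d and 0.530-fold for Stard4. KO replicate 2 had 2.28-fold, 2.19-fold, 0.327-fold and 0.0139-fold in the same order. Sqle and Srebf2 were thus higher and Sc5d and Stard4 lower in KO replicate 2, and none of the 4 was called in KO replicate 1 or over all 4 libraries.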

How the data were processed

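RNA of sorted basal cells was sequenced in 4 libraries, 2 WT and 2 KO. The authors deposited raw read counts for Ensembl gene IDs. The submitters' processing notes name TopHat2 (2.02), HTSeq and the NCBIM37 (mm9) build. Neither the annotation release nor the strand setting is given in the sources used here. The 5 HTSeq summary rows were left out; reads in no feature made up 57.59% to 61.52% of the counted total and ambiguous reads 0.71% to 0.79%. Symbols matched 30082 of 34615 rows (86.9%). Exon lengths came from GENCODE M21 (GRCm38), a later build than that of the counts; printed coordinates are those of the RefSeq sequences (GRCm38.p6), not of the counted features.

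Genes were filtered with filterByExpr, scaled by TMM and tested with edgeR 4.0.16 (R 4.3.3), two-sided, on the whole table with Benjamini-Hochberg adjustment, and called at an adjusted p under 0.05. SE is the log2 fold change divided by the square root of the test's F. Each KO library was also tested against the WT pair. Per-library differences use log2 CPM with a prior count of 2. DESeq2 1.42.0, other scalings, filters, a replicate block and left-out libraries were alternatives. The procedure was tested on simulated counts. All 30 listed genes are accounted for; genes of the wider lists were named where highest, lowest or not overlapping, with exceptions stated. The members and lists were chosen with earlier results of these data known. Some genes of the wider lists enter the counts and are not reported here by name.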

Additional observations from a re-analysis of the deposited data

How the results depend on the processing

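The count of 0 called among the listed genes held under DESeq2, total count and upper quartile scaling, the replicate block, and with all genes kept or only those averaging at least 5 CPM. DESeq2 called 4 genes over the whole table. Where only genes averaging at least 5 CPM were kept, the median log2 fold change of the 22 listed genes left was 0.26. With the replicate block 0 genes were called (79 at an unadjusted p under 0.05) and the median was -0.08. Across genes, the difference between the WT libraries and that between the KO libraries had a correlation of 0.00973. Genes with low detection in KO replicate 2 enter that value, so it cannot decide whether same-numbered libraries share a batch. With single libraries left out, called listed genes ran from 0 to 15, called genes over the whole table from 0 to 5724, and the median of the listed genes from -0.78 to 0.13. The 5724 and 15 came without KO replicate 1, which leaves KO replicate 2, the library with low detection, as the only KO library; without either WT library 5 genes were called. With total count scaling and without KO replicate 1, a setting added after seeing the data, 5564 genes and 13 listed genes were called and the median was -1.03. The log2 fold change of 15 listed genes turned sign when a library was left out, with these ranges: Insig2 (-1.33 to 0.29), Srebf2 (-0.00628 to 1.13), Mvd (-8.88 to 0.945), Mvk (-6.16 to 4.94), Pmvk (-9.88 to 0.465), Fdps (-10.1 to 0.479), Dhcr7 (-10.6 to 0.842), Sc5d (-1.61 to 0.228), Nsdhl (-0.0355 to 0.691), Ebp (-0.658 to 2.85), Msmo1 (-0.232 to 0.98), Tm7sf2 (-9.98 to 0.153), Acat2 (-0.448 to 0.523), Scd1 (-0.387 to 0.791) and Fads2 (-2.01 to 0.485). The cause was not tested. Fold changes of genes with 0 counts in KO replicate 2 depend on the prior count and are no bounds. Below 5 CPM, detection in that library limits what can be compared.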

Other observations

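Genes of fatty acid synthesis and of sterol efflux outside the listed set were called in KO replicate 2 alone and not in KO replicate 1. In KO replicate 2 alone the edgeR test called 2 of 25 tested genes of fatty acid synthesis and activation higher, Hacd1 and Tecr, and 5 lower (Elovl1, Hacd2, Cyb5a, Agpat2 and Dgat1), where 12.4% and 22.5% of all tested genes were called. With total count scaling the median log2 fold change of these 25 genes was -0.332, against -0.971 over all tested genes. Tecr, the reductase that completes each round of chain lengthening, had 105 and 104.3 CPM in the WT libraries, and 128.9 CPM in KO replicate 1 against 283.6 CPM in KO replicate 2. Dgat1, which makes triglycerides, had 22.6 and 19.1 CPM in the WT libraries, and 14.8 CPM in KO replicate 1 against 1.75 CPM in KO replicate 2. Acsl4, a synthetase that prefers arachidonate, was below WT by nearly the same amount in both KO libraries, with 374.6 and 347.9 CPM in the WT libraries, against 258.7 and 268.2 CPM in the KO libraries, and its log2 fold change of -0.46 ± 0.19 (SE) was not called (edgeR adjusted p = 0.9989), although it was called lower in KO replicate 2 alone with total count scaling.

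Of the LXR and efflux genes, which dispose of excess sterol, 0 of 7 were called higher and 2 lower in KO replicate 2 alone, beside 12.4% and 22.5% of all tested genes. Nr1h2, which encodes LXR beta, had 30.4 and 27.6 CPM in the WT libraries, and 27.4 CPM in KO replicate 1 against 0.407 CPM in KO replicate 2 (edgeR adjusted p = 0.00247 in that library alone). Abca1, the main sterol exporter, had 261.2 and 253.4 CPM in the WT libraries, against 318 and 298.5 CPM in the KO libraries, above WT in both libraries and not called with all 4 libraries or with either KO library alone. Abcg1, a related exporter, had 11.4 and 13.1 CPM in the WT libraries, a value above both in KO replicate 1, and only 0.527 CPM in the other KO library (edgeR adjusted p = 0.004373 there). Of these genes, those whose groups overlap, such as Abcg1 and Elovl1, were named after their values were seen.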
